A study of Mus musculus with 18 samples.

Results

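A set of 10 genes that restrain mitogen-activated protein kinase (MAPK) signalling was followed in brown adipocytes: the dual-specificity phosphatases Dusp1, Dusp4, Dusp5, Dusp6, Dusp8, Dusp10 and Dusp16 and the Sprouty genes Spry1, Spry2 and Spry4. They were located by symbol, and all 10 were found among the 17672 genes counted. Only 8 of the 10 had enough counts to be tested. Dusp6 and Dusp8 did not, and are given as counts. The cells were a mouse brown adipocyte cell line that stably carried an shRNA against Abhd5, the gene of a protein that activates the triglyceride lipase ATGL, and a doxycycline (Dox)-inducible, shRNA-resistant, mCherry-tagged ABHD5. All 6 groups carried both constructs. The 3 groups without Dox are labelled ABHD5 KD (knockdown), and the 3 groups with Dox (1 µg/ml; the labels give 24 to 48 h of it, the study's account of this experiment 24 h) are labelled WT. In each state, differentiated cells received the vehicle DMSO, the β-adrenergic agonist isoproterenol (ISO, 10 nM) or SR-3420 (20 µM), a synthetic ABHD5 ligand that starts lipolysis without the agonist, for 3 h. Each group had 3 replicate libraries, so 18 in all, from 1 transduced line.

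MAPKs are active only while a threonine and a tyrosine in their activation loop are both phosphorylated, and dual-specificity phosphatases remove both phosphates. DUSP5 and DUSP6 act mainly on ERK, in the nucleus and the cytoplasm respectively, DUSP8, DUSP10 and DUSP16 act preferentially on JNK and p38, and the nuclear enzymes DUSP1 and DUSP4 act on more than one MAPK class. Sprouty proteins act earlier and restrain the path from growth factor receptors through Ras to ERK. In brown adipocytes, β-adrenergic signals reach p38 through cAMP and protein kinase A, and p38 is known for its part in the induction of Ppargc1a and Ucp1. Many of these inhibitors are transcribed in response to the pathways they restrain, which is why they are called feedback genes.

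The sequence before the start of each gene is shown for the 5 phosphatases whose changes or differences in a promoter element are described below. One of the elements through which cAMP acts on transcription is the palindrome TGACGTCA, and its core TGACG also occurs alone. The 250 bases before the RefSeq start (build GRCm38.p6) were searched on both strands for TGACGTCA and for TGACG, which overlaps it. Capitals mark TGACG or its reverse complement CGTCA, and each sequence reads 5′ to 3′ on the strand of its gene. The windows are chr19:53528895-53529144 (plus strand) for Dusp5, chr1:184034131-184034380 (plus strand) for Dusp10, chr6:134792629-134792878 (minus strand) for Dusp16, chr7:142095285-142095534 (minus strand) for Dusp8 and chr17:26508473-26508722 (minus strand) for Dusp1.
Dusp5: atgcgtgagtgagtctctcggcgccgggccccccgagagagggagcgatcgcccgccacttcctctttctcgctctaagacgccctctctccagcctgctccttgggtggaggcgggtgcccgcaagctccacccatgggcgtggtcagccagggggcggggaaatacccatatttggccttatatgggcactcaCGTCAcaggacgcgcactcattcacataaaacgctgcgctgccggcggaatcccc
Dusp10: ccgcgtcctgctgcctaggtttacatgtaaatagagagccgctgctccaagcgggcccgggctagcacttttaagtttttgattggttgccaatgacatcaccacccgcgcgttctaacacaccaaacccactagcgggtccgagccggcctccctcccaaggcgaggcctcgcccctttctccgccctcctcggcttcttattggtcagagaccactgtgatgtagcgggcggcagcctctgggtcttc
Dusp16: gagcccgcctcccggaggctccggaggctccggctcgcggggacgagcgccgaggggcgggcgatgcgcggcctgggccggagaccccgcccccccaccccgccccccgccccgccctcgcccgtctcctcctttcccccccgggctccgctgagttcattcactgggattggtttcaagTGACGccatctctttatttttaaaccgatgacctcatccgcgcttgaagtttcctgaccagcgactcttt
Dusp8: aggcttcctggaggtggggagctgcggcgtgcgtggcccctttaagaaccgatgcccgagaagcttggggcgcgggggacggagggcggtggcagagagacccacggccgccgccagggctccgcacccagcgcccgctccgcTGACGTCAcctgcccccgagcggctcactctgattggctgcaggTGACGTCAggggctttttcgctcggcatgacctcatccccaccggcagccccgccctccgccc
Dusp1: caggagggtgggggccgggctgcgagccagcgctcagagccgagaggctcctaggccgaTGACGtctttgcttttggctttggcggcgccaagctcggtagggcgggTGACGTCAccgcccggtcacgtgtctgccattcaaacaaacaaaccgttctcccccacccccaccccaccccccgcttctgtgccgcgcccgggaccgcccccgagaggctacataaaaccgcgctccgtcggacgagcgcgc
The palindrome stood at 2 places in Dusp8, starting 107 and 63 bases before the gene, and at 1 place in Dusp1, starting 143 bases before it. Dusp1 also had a lone TGACG starting 191 bases before the gene. Dusp5 had a lone CGTCA 55 bases before the gene and Dusp16 a lone TGACG 70 bases before it, while Dusp10 had neither sequence. Promoters of Dusp6, Spry1 and Spry2 had none either, 8 of the 10 genes being matched in the table of promoters. Dusp4 was not in that table and Spry4 was not analysed. Among 32841 promoters of 27018 genes, 508 (1.55%) held the palindrome and 5836 (17.8%) held TGACG on either strand. These matches are letters in a window and not measured sites of binding.

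**Figure D1:**
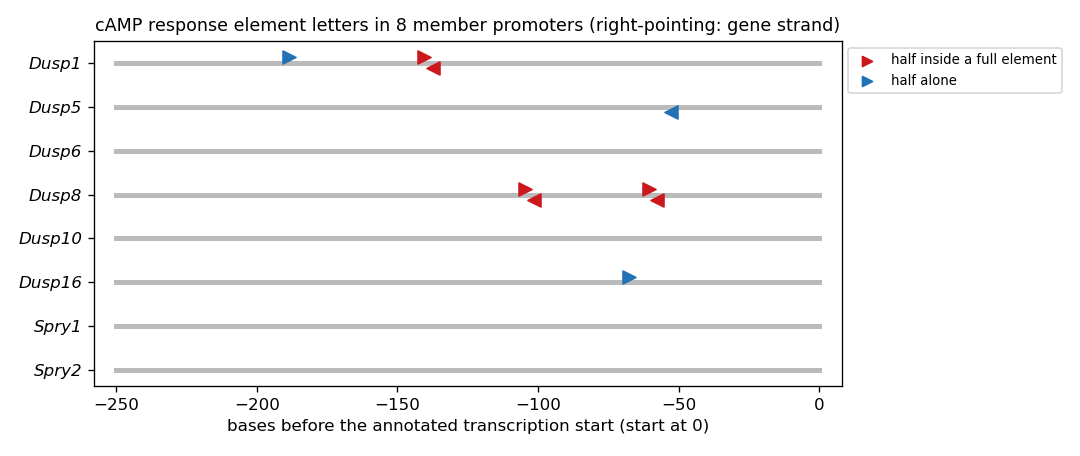
Positions of TGACG in the 250 bases before the start of each gene (x axis, distance from the start in bases) for the 8 genes with a promoter in the table (y axis), with marks for the full palindrome and for the core alone. Dusp8 holds 2 palindromes, Dusp1 holds 1 and a lone core, and Dusp5 and Dusp16 each hold a lone core.

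Library totals ran from 689910 to 1956565 counts, with a median of 1145729. The counted length of most genes matched their introns, so the counts were read as unspliced RNA. Counted were 335 of 2882 bases for Dusp1, 999 for Spry2 and 1462 for Dusp6, against 66336 for Dusp16 and 34207 for Dusp10. The match to introns was not close for every gene of the set. Annotated exons took 2697 bases of Dusp1 and 2085 of the 4873 of Spry2. They took 2473 of the 12005 of Dusp5, of which 10850 were counted. Abhd5 itself averaged 52.6 ± 4.71 CPM (counts scaled to the TMM-corrected library total, SD, n = 3) in DMSO without Dox and 574 ± 86.1 with Dox, in the direction of the labels. The counts do not tell the construct from the endogenous gene. Intron reads alone would not show a construct made without introns, and whether this one has introns is not stated. For Abhd5 the reading as unspliced RNA is thus uncertain, and the source of its rise was not tested. The 8 adipocyte markers found in the table each reached 10 counts in some library and summed to 3330 to 7070 CPM. Of 8 brown adipocyte markers 6 reached 10 counts in some library, and Dio2 had no count anywhere. That list summed to 92.5 to 187 CPM in DMSO without Dox and 158 to 203 in DMSO with Dox, and to at most 1330, in ISO with Dox. Of 7 preadipocyte markers 4 reached 10 counts in some library, and the list summed to 105 to 173 CPM. The 6 macrophage markers in the table summed to 4.5 to 20.2 CPM. One library stood apart: in SR-3420 with Dox replicate 1 the 10 most counted genes took 35.6% of the counts, against 16.3% to 26.5% in the other 17, and its TMM factor was 0.768.

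To place the genes relative to each other, levels were divided by the counted length. In DMSO without Dox, Dusp1 stood highest at 21.9 ± 8.76 CPM per kb (SD, n = 3), a level from only 22 counts in the 3 libraries. Spry2 (12.1 ± 7.32), Spry1 (7.99 ± 2.02) and Dusp4 (5.68 ± 0.799) followed. Dusp6 stood at 1.54, Spry4 at 0.632, Dusp5 at 0.457, Dusp10 at 0.196, Dusp16 at 0.154 and Dusp8 at 0.0992 CPM per kb. With ISO and Dox, Dusp5 reached 8.91 ± 2.09 CPM per kb, above Dusp4 at 5.31 ± 0.893. Dusp10 reached at most 1.99 ± 0.092 CPM per kb, in SR-3420 with Dox. Dusp1 and Spry2, which stood highest in DMSO without Dox, also had the shortest counted lengths. The order is one of reads per counted base and not of transcript levels, and the part of length in it was not tested. Each change below compares a gene with itself, so length does not enter.

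How the agonist moved these genes in knockdown cells was asked first, from ISO and DMSO without Dox. Dusp5, Dusp10, Dusp16 and Dusp4 rose and Spry2 fell. Thus 4 of 8 genes tested were higher and 1 was lower at an adjusted p of 0.05 or less (edgeR quasi-likelihood test, Benjamini-Hochberg over 10178 genes), where 14.5% of all genes were higher and 13.5% lower. In rescued cells ISO raised Dusp5, Dusp10 and Dusp16 and lowered Dusp1 and Spry1, 3 and 2 of 8, where 16.4% of all genes were higher and 16.1% lower. The median log2 change of the 8 genes was -0.01 without Dox and 0.03 with Dox, beside -0.01 and -0.02 for all genes. No gene of the 8 passed the test of the difference between these responses (the interaction with Dox), 1 of 8 having an unadjusted p under 0.05. DESeq2 and limma-voom also gave 0. Of all genes 1.61% responded more positively to ISO with Dox and 0.570% less.

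SR-3420 without Dox changed none of the 8 by edgeR, DESeq2 or limma-voom. One of the 8, Dusp10, had an unadjusted p under 0.05, and 0.698% of all genes were higher and 0.0688% lower. With Dox, SR-3420 raised Dusp5, Dusp10 and Dusp16 and lowered none, 3 of 8, where 6.53% of all genes were higher and 3.37% lower. The median log2 change of the 8 was -0.01 without Dox and 0.42 with Dox, beside 0 and -0.01 for all genes. The interaction passed for 1 of 8, Dusp16, where 0.540% of all genes had a larger response with Dox and 0.216% a smaller one. Dox alone changed none of the 8 in DMSO by any of the same tools, with 1 gene (Dusp10) at an unadjusted p under 0.05, where 1.09% of all genes were higher and 0.0884% lower. The ISO and SR-3420 comparisons within a Dox state share their DMSO libraries. The libraries are of bulk RNA, in which fewer cells of a type and less RNA per cell cannot be told apart.

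**Figure D2:**
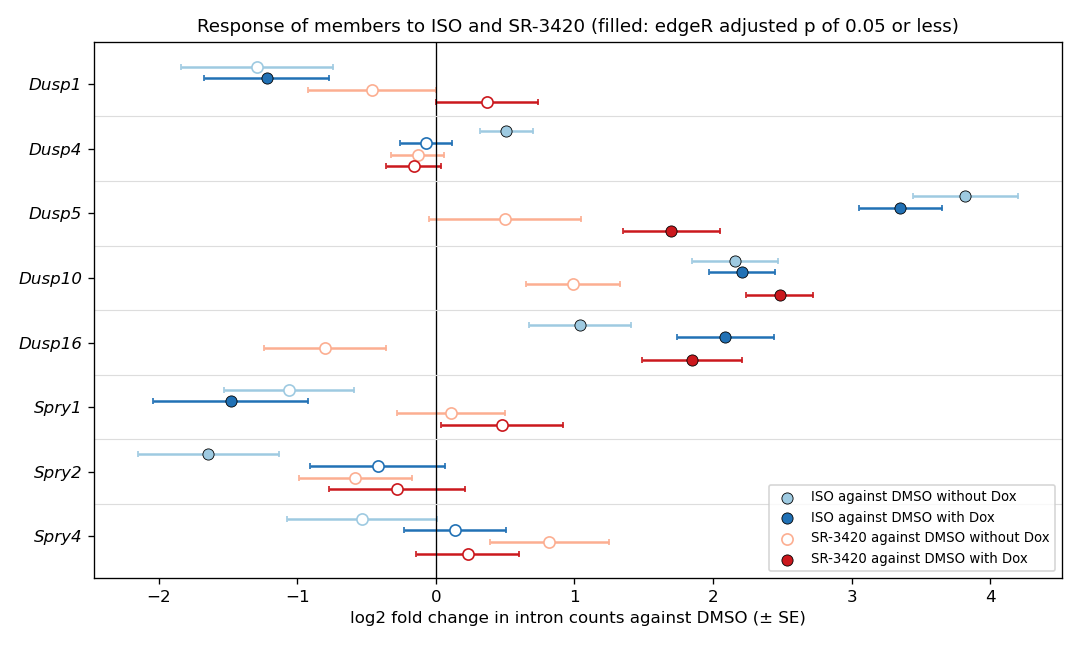
Log2 change (x axis) of the 8 genes tested (y axis) after ISO or SR-3420 relative to DMSO in both Dox states. Bars are 1 standard error (SE), taken as the size of the change over the square root of its edgeR F statistic. Filled points passed an adjusted p of 0.05, and Dusp5, Dusp10 and Dusp16 are filled for ISO in both states and for SR-3420 with Dox only.

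Dusp5 (NM_001085390, chr19:53603808-53615812, plus strand, mm9), the nuclear ERK phosphatase, gave the strongest response to ISO among the 8. Without Dox it had 2.67, 8.16 and 4.06 CPM in DMSO (3, 6 and 4 counts) and 92.9, 46.6 and 60.8 CPM in ISO (86, 47 and 81 counts). Every ISO library lay far above every DMSO library. The log2 change was 3.82 (SE 0.38, edgeR adjusted p 1.28e-08). With Dox it had 13, 6.25 and 5.62 CPM in DMSO and 120, 74.8 and 95.3 CPM in ISO, again with no overlap, for a log2 change of 3.35 (SE 0.30, edgeR adjusted p 6.14e-10). SR-3420 gave 7.55, 6.39 and 5.49 CPM without Dox, within the range of DMSO, and the log2 change of 0.50 (SE 0.55, edgeR adjusted p 0.881) did not pass. SR-3420 with Dox gave 29.9, 39.8 and 23 CPM, all above DMSO and all below ISO. Its log2 change over DMSO was 1.70 (SE 0.35, edgeR adjusted p 0.00125), and ISO exceeded it by 1.64 (SE 0.25, edgeR adjusted p 2.01e-05). Without Dox, ISO exceeded SR-3420 by 3.31 (SE 0.32, edgeR adjusted p 3.5e-09). DMSO with Dox replicate 1 held the most Dusp5 of the 6 DMSO libraries, and without it the changes with Dox were 4 for ISO and 2.35 for SR-3420. The interaction of SR-3420 with Dox was 1.20 (SE 0.69, edgeR adjusted p 0.508) and that of ISO -0.47 (SE 0.57, edgeR adjusted p 0.766), so neither difference between the states passed.

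Dusp10 (NM_022019, chr1:185858340-185899515, plus strand, mm9), a phosphatase of JNK and p38, reached its highest mean with SR-3420 and Dox. Its DMSO libraries without Dox had 8.9, 4.08 and 7.1 CPM and those with Dox 10.6, 8.33 and 19.1 CPM. ISO raised it to 36.7, 27.8 and 30.8 CPM without Dox (log2 change 2.16, SE 0.31, edgeR adjusted p 4.99e-06) and to 64.2, 55.1 and 50.1 CPM with Dox (2.21, SE 0.24, edgeR adjusted p 2.62e-08). All ISO libraries lay above all DMSO libraries. SR-3420 with Dox gave 71.2, 67.6 and 64.9 CPM, above every other library under TMM scaling though close to the highest ISO library (log2 change over DMSO 2.48, SE 0.24, edgeR adjusted p 2.14e-08). Unlike Dusp5, Dusp10 was not higher in ISO than in SR-3420 with Dox: the log2 difference was -0.26 (SE 0.19, edgeR adjusted p 0.347), although the 3 libraries of each did not overlap. SR-3420 without Dox gave 13.9, 12.8 and 15.7 CPM, above all 3 DMSO libraries, but the log2 change of 0.99 (SE 0.34) did not pass (edgeR adjusted p 0.272). There ISO exceeded SR-3420 by 1.17 (SE 0.24, edgeR adjusted p 0.00055). The response to SR-3420 was larger with Dox by 1.48 on the log2 scale (SE 0.45), which did not pass either (edgeR adjusted p 0.124, unadjusted 0.0026).

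Dusp16 (NM_130447, chr6:134665486-134742646, minus strand, mm9), which also prefers JNK and p38, was the gene whose response to SR-3420 differed between the states. Without Dox it had 8.9, 13.6 and 8.12 CPM in DMSO and 6.39, 8.13 and 1.57 CPM in SR-3420, where replicate 3 held 2 counts. SR-3420 was on the low side, with the groups meeting at 8.12 and 8.13 CPM, and the log2 change of -0.80 (SE 0.44, edgeR adjusted p 0.648) did not pass. With Dox it had 8.67, 6.25 and 5.62 CPM in DMSO and 21.1, 31.8 and 27 CPM in SR-3420, with no overlap. That log2 change was 1.85 (SE 0.36, edgeR adjusted p 0.000703). The 2 responses differed by 2.65 (SE 0.57, edgeR adjusted p 0.0233). The call was lost without DMSO without Dox replicate 1 (2.73, adjusted p 0.0527) or replicate 2 (2.43, 0.0753), without SR-3420 without Dox replicate 3 (2.29, 0.0528) and without DMSO with Dox replicate 3 (2.53, 0.063). ISO gave 24.9, 23.8 and 14.3 CPM without Dox, all above DMSO, and 39.2, 29.1 and 25 CPM with Dox. Its log2 change was 2.09 with Dox (SE 0.35, edgeR adjusted p 2.61e-05) and 1.04 without (SE 0.37, edgeR adjusted p 0.0374), and the difference of 1.05 did not pass (SE 0.53, edgeR adjusted p 0.372). The ISO call without Dox was lost without DMSO replicate 1 (0.95) or 3 (0.91) or ISO replicate 1 (0.91) or 2 (0.93), and also by DESeq2 (adjusted p 0.0521), limma-voom (0.0642) and with library totals only (0.102). ISO exceeded SR-3420 by 1.84 without Dox (SE 0.37, edgeR adjusted p 0.000387), while with Dox the difference was 0.24 (SE 0.29, edgeR adjusted p 0.603).

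**Figure D3:**
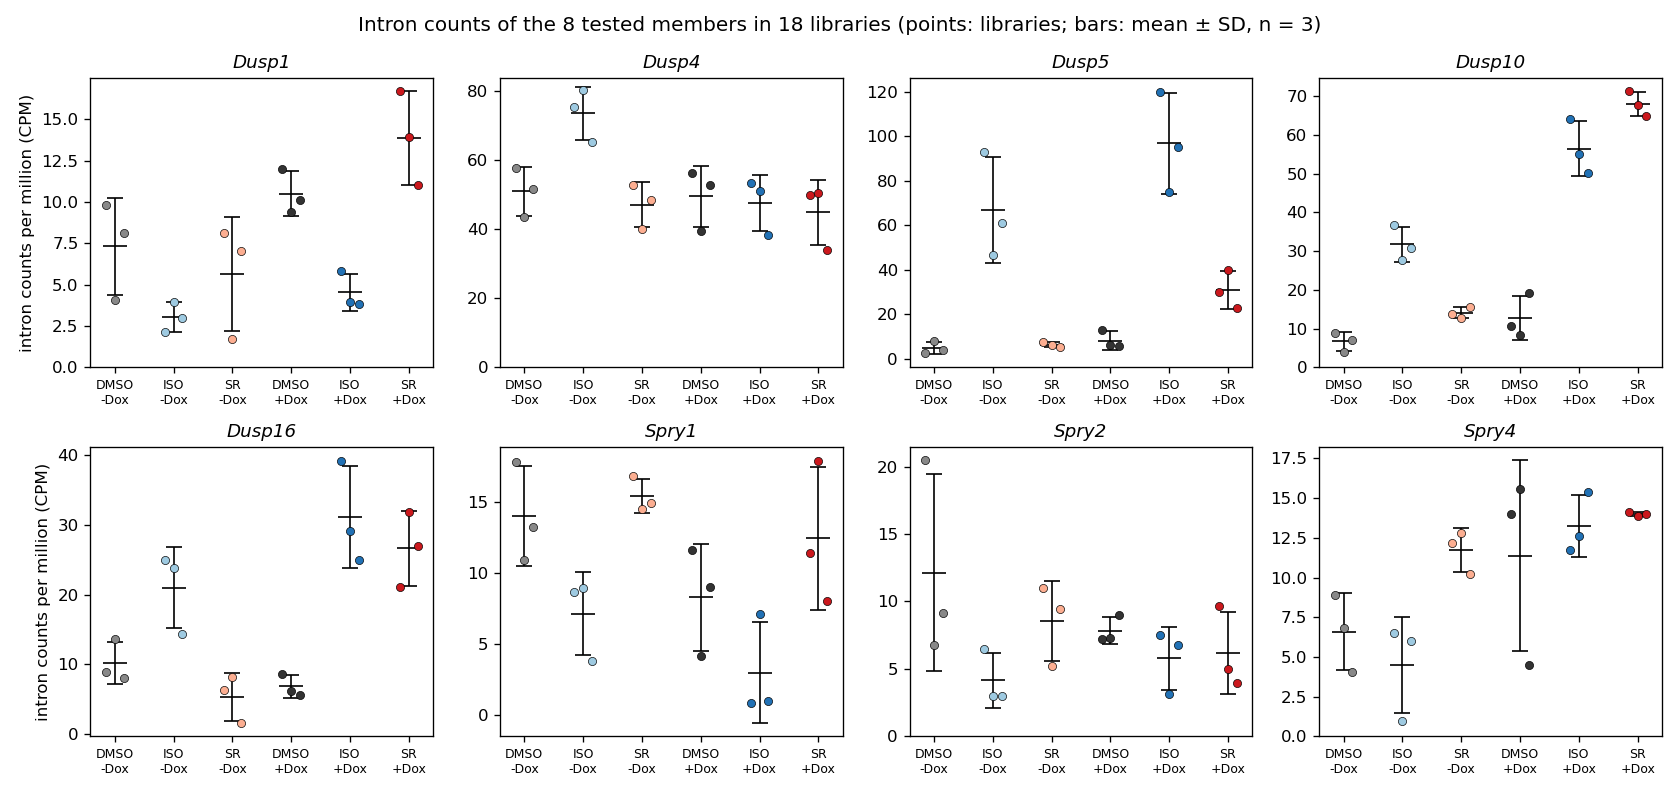
CPM after TMM scaling (y axis) of each gene tested in the 18 libraries, by group (x axis), with points for libraries and bars for the mean and SD of 3. Dusp5 is highest in the ISO groups, Dusp10 in SR-3420 with Dox, and Dusp16 overlaps between SR-3420 with Dox and both ISO groups.

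The changes by SR-3420 with Dox were of like size without replicate 1, the library that stood apart. Without it, the log2 change by SR-3420 with Dox was 1.73 for Dusp5, 2.44 for Dusp10 and 2 for Dusp16, and all 3 still passed. In the same 3 libraries the adipocyte markers summed to 5710 to 7020 CPM, against 4000 to 4500 in DMSO with Dox and 6800 to 7070 in ISO with Dox. Preadipocyte markers summed to 126 to 169 CPM with SR-3420 and Dox and to 154 to 173 in DMSO with Dox. ISO libraries lay below DMSO in this sum without overlap, at 106 to 113 against 143 to 167 CPM without Dox and 105 to 153 against 154 to 173 with Dox. Most of that sum in DMSO was Pdgfrb, a PDGF receptor gene also in the ERK list, which averaged 55.2 CPM with ISO against 127 in DMSO without Dox and 73.9 against 127 with Dox (n = 3 each). Pdgfra, also on the list, averaged 24.5 against 21 CPM without Dox and 30.6 against 22.9 with Dox, so the lower sum is not a fall of the list as a whole. ISO libraries without Dox lay above DMSO in the adipocyte sum, at 4370 to 4520 against 3330 to 4010 CPM. SR-3420 libraries without Dox lay higher still, at 4770 to 5140 CPM, though none of the 8 genes passed there. The brown adipocyte sum with ISO was 319 to 468 against 92.5 to 187 CPM without Dox and 595 to 1330 against 158 to 203 with Dox. With SR-3420 it was 137 to 238 CPM without Dox and 226 to 514 with Dox. The part of these marker levels in the changes by ISO and SR-3420 was not tested.

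Dusp8 (NM_008748, chr7:149265392-149281189, minus strand, mm9), a further phosphatase of JNK and p38, had 29 counts in the 3 libraries of SR-3420 with Dox and 0 to 6 in each other group. It had 1, 1 and 1 counts in DMSO, 1, 3 and 0 in ISO and 0, 0 and 0 in SR-3420 without Dox. With Dox it had 2, 1 and 0 counts in DMSO, 2, 2 and 2 in ISO and 10, 13 and 6 in SR-3420. These last 3 libraries were the highest of all 18, at 8.79, 12.9 and 5.99 CPM (mean 9.24 ± 3.49, SD, n = 3). Summed over 3 libraries, SR-3420 with Dox was 12.1 times DMSO with Dox in CPM (95% interval 3.74 to 61.9, from 29 and 3 counts) and 5.39 times ISO with Dox (2.2 to 15.9). It was at least 14.5-fold higher than SR-3420 without Dox, taking 3 counts over that group as the floor. The intervals cover counting error only. The gene was below the limit for the main test. In a fit with no limit on low counts (15973 genes) its log2 change by SR-3420 with Dox was 3.42 (SE 0.82, edgeR adjusted p 0.00106). Its interaction did not pass (edgeR adjusted p 0.0521), and no size is given for it because SR-3420 without Dox had 0 counts. The 2 copies of TGACGTCA before this gene are marked in its sequence above. No rise with ISO was detectable at this depth, the ratio to DMSO being 1.16 (95% interval 0.196 to 7.93) without Dox and 2.24 (0.478 to 13.8) with Dox.

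Dusp6 (NM_026268, chr10:98725865-98730123, plus strand, mm9), the cytoplasmic ERK phosphatase, had too few intron counts in every group. It had 3, 3 and 0 counts in DMSO, 3, 4 and 1 in ISO and 5, 3 and 4 in SR-3420 without Dox, and 3, 0 and 1, 1, 5 and 0, and 1, 2 and 0 with Dox in the same order. The groups overlapped throughout. Ratios to DMSO were 1.16 (95% interval 0.353 to 4.06) for ISO and 1.21 (0.419 to 3.92) for SR-3420 without Dox, and 1.68 (0.398 to 8.09) and 0.937 (0.137 to 5.54) with Dox. Changes inside these intervals were not detectable at this depth.

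**Figure D4:**
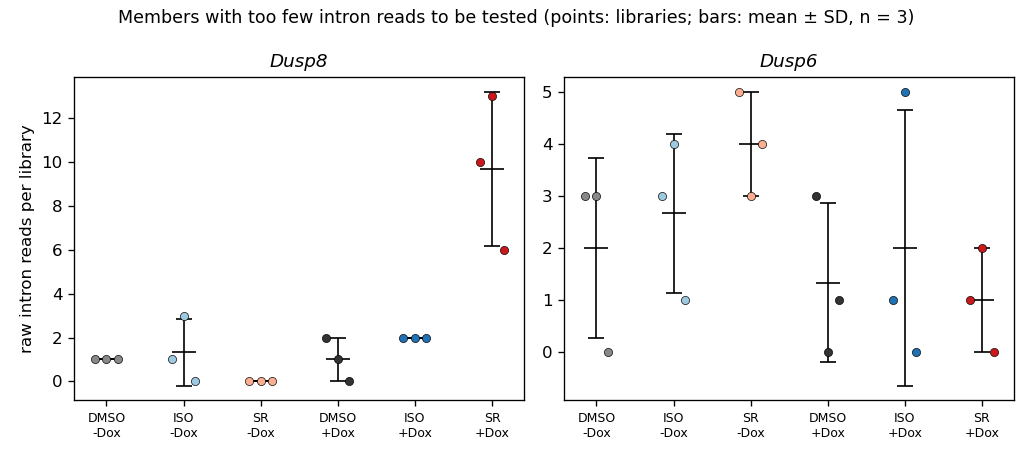
Raw counts (y axis) of Dusp6 and Dusp8, the genes not tested, in each library by group (x axis). Dusp8 has 10, 13 and 6 counts in SR-3420 with Dox and at most 3 in any other library, while Dusp6 has at most 5 in all 18.

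Dusp4 (NM_176933, chr8:35870664-35882948, plus strand, mm9), a nuclear phosphatase, was the one of the 10 with at least 10 counts in every library. It had 57.8, 43.5 and 51.7 CPM in DMSO without Dox and 75.6, 80.3 and 65.3 CPM in ISO without Dox. ISO libraries lay above DMSO libraries by a small step, a log2 change of 0.51 (SE 0.19, edgeR adjusted p 0.046). The call was lost without DMSO without Dox replicate 1 (0.60), 2 (0.42) or 3 (0.50) or ISO without Dox replicate 1 (0.49) or 2 (0.45), and also by DESeq2 (adjusted p 0.0862), limma-voom (0.0572) and with library totals only (0.246). With Dox it had 56.3, 39.6 and 52.8 CPM in DMSO, 53.4, 51.2 and 38.5 in ISO and 50.1, 50.7 and 34 in SR-3420, and these groups overlapped. Its ISO change with Dox was -0.07 (SE 0.19, edgeR adjusted p 0.809), which differed from that without Dox by -0.58 (SE 0.27, edgeR adjusted p 0.317), short of the threshold. SR-3420 without Dox gave 52.8, 40.1 and 48.6 CPM, and ISO exceeded it by 0.64 (edgeR adjusted p 0.00828), a call lost without SR-3420 without Dox replicate 2 (0.53, adjusted p 0.0537) and with library totals only (0.52, adjusted p 0.0518).

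Dusp1 (NM_013642, chr17:26642536-26645417, minus strand, mm9), an immediate early phosphatase of p38, JNK and ERK, was lower with ISO in rescued cells. With Dox it had 12, 9.37 and 10.1 CPM in DMSO (25, 9 and 9 counts) and 5.84, 3.94 and 3.85 CPM in ISO (7, 5 and 4 counts). The groups did not overlap, and the log2 change was -1.22 (SE 0.45, edgeR adjusted p 0.0366). It rests on few counts: it was lost without DMSO with Dox replicate 1 (-1.08) or 3 (-1.24) or ISO with Dox replicate 2 (-1.09) or 3 (-1.11), by DESeq2 (adjusted p 0.0902), by limma-voom (0.0501) and with no limit on low counts (0.0532). Without Dox it had 9.79, 4.08 and 8.12 CPM in DMSO and 2.16, 3.97 and 3 CPM in ISO, and the change of -1.29 (SE 0.55, edgeR adjusted p 0.0807) did not pass, though it did with library totals only (-1.47, adjusted p 0.0479). With SR-3420 and Dox it had 16.7, 13.9 and 11 CPM, each above every ISO library, and ISO was lower than SR-3420 by a log2 difference of -1.59 (SE 0.44, edgeR adjusted p 0.0106). Without SR-3420 with Dox replicate 1 this was -1.41 (adjusted p 0.0574). The palindrome is also present in the Dusp1 sequence shown above.

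Among the Sprouty genes, all 3 of which have short counted lengths or few counts, ISO gave lower values of Spry1 and Spry2. Spry1 (NM_011896, chr3:37538872-37543521, plus strand, mm9) had 11.6, 4.16 and 8.99 CPM in DMSO with Dox and 0.834, 7.09 and 0.963 CPM in ISO with Dox, from 1, 9 and 1 counts. ISO replicate 2 lay inside the range of DMSO and the other ISO replicates below it. The log2 change was -1.48 (SE 0.56, edgeR adjusted p 0.0424). Leaving out ISO with Dox replicate 2 made it -3.15. It did not pass without ISO with Dox replicate 1 (-1.03) or 3 (-1.10), without DMSO with Dox replicate 1 (-1.03) or 3 (-1.46) or by DESeq2 (adjusted p 0.0573). Without Dox it had 17.8, 10.9 and 13.2 CPM in DMSO and 8.65, 8.92 and 3.75 CPM in ISO, with no overlap but an adjusted p of 0.0963 by edgeR (log2 change -1.06, SE 0.47). With library totals only this passed (-1.23, adjusted p 0.0496), as it did with the groups of the contrast alone (-1.06, adjusted p 0.0486). SR-3420 gave 16.8, 14.5 and 14.9 CPM without Dox and 11.4, 17.9 and 7.99 CPM with Dox, near DMSO in both states.

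Spry2 (NM_011897, chr14:106291164-106296036, minus strand, mm9) had 20.5, 6.8 and 9.13 CPM in DMSO without Dox and 6.48, 2.97 and 3 CPM in ISO without Dox. The groups came within a fraction of 1 CPM of each other without overlapping, and DMSO replicate 1 stood far above the rest. The log2 change was -1.64 (SE 0.51, edgeR adjusted p 0.0159), and -1 (adjusted p 0.241) without that library. It also did not pass without ISO replicate 2 (-1.48) or 3 (-1.42). With Dox it had 7.22, 7.29 and 8.99 CPM in DMSO and 7.5, 3.15 and 6.74 CPM in ISO, which overlapped (log2 change -0.42, SE 0.49, edgeR adjusted p 0.545). SR-3420 libraries had 3.99 to 11 CPM over both states, within or below the range of the 6 DMSO libraries, although replicate 1 with Dox (9.67) lay above the 3 DMSO libraries with Dox.

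Spry4 (NM_011898) did not pass against DMSO in any comparison. It had 4.06 to 8.9 CPM in DMSO, 0.991 to 6.48 in ISO and 10.2 to 12.8 in SR-3420 without Dox, and 4.49 to 15.6, 11.7 to 15.4 and 13.9 to 14.1 with Dox. Without Dox the SR-3420 libraries thus lay above those of both other groups. SR-3420 changed it by 0.82 over DMSO (SE 0.43), short of the threshold (edgeR adjusted p 0.622), and the log2 difference of ISO from SR-3420 was -1.35 (edgeR adjusted p 0.0229).

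Read directly against each other, ISO and SR-3420 differed for 6 of 8 genes without Dox (4 higher and 2 lower with ISO, where 14.1% of all genes were higher and 14.1% lower) and for 3 of 8 with Dox (1 higher and 2 lower, where 10.4% and 9.43% were). Dusp4, Dusp5, Dusp10 and Dusp16 were the higher ones without Dox, and Spry1 (-1.17, edgeR adjusted p 0.0449) and Spry4 the lower ones. With Dox, Dusp5 was higher and Dusp1 and Spry1 (-1.96, SE 0.54, edgeR adjusted p 0.0106) were lower. The Spry1 difference without Dox was lost without ISO replicate 1 (-1.34) or 3 (-0.79), without SR-3420 replicate 1 (-1.10), 2 (-1.21) or 3 (-1.19) and by DESeq2 (adjusted p 0.07). The Spry4 difference was lost without ISO without Dox replicate 2 (-0.91) or SR-3420 without Dox replicate 1 (-1.32) or 2 (-1.28). The Spry1 difference with Dox was lost without ISO with Dox replicate 1 (-1.51) or 3 (-1.58) or SR-3420 with Dox replicate 2 (-1.61). Leaving out ISO with Dox replicate 2 made it -3.63. In contrast, the changes of Dusp5 and Dusp10 by ISO in both states, and those of Dusp5, Dusp10 and Dusp16 by SR-3420 with Dox, passed in each of the 13 alternative fits that tested them, as did the change of Dusp16 by ISO with Dox.

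The genes differed in the order of the groups. For Dusp10 the means fell from SR-3420 with Dox (67.9 CPM) through ISO with Dox (56.5) and ISO without Dox (31.8) to SR-3420 without Dox (14.1), DMSO with Dox (12.7) and DMSO without Dox (6.69). Under TMM scaling each of the first 3 groups was clear of the group after it. For SR-3420 and ISO with Dox this was narrow, the nearest libraries having 64.9 and 64.2 CPM. Each of the last 3 groups overlapped its neighbour among them. For Dusp5 both ISO groups came first (96.7 with Dox and 66.8 without, overlapping), then SR-3420 with Dox (30.9), then the other 3 groups at 4.96 to 8.29, which overlapped. For Dusp16 ISO with Dox (31.1), SR-3420 with Dox (26.6) and ISO without Dox (21) overlapped with their neighbours and stood above the other 3 groups at 5.36 to 10.2. Over the 18 libraries, which share treatments and differ in depth, Pearson's r of log2 CPM was 0.83 for Dusp5 with Dusp16, 0.80 for Dusp5 with Dusp10 and 0.73 for Dusp10 with Dusp16. Dusp5 ran opposite to Spry1 (-0.64) and Spry2 (-0.59). The genes outside the set most like Dusp5 by this measure were Lamb1 (0.97), B4galt1 (0.96) and Csnk1a1 (0.96). Those most like Dusp10 were Irs2 (0.95), Sh3pxd2a (0.95) and Tle3 (0.94), and those most like Dusp16 were Morf4l2 (0.92), Mkln1 (0.92) and Cdk13 (0.91). For the other genes tested the nearest were Msh5 (0.88) for Dusp1, Srebf2 (0.85) for Dusp4, Snx1 (0.88) for Spry1, Syce2 (0.80) for Spry2 and B230219D22Rik (0.84) for Spry4.

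Other genes of the Dusp name were set beside these genes. Not all of them encode classical MAPK phosphatases: of those named below, Dusp11, Dusp13 and Dusp22 do not. The counts that follow are therefore not a count of MAPK phosphatases alone. A further 16 Dusp genes were counted, of which 6 were tested, and with ISO 0 rose and 3 fell without Dox and 0 rose and 2 fell with Dox (edgeR, also 0 higher at an unadjusted p under 0.05 in each state). Of all genes 14.5% rose and 13.5% fell without Dox and 16.4% rose and 16.1% fell with Dox. Without Dox the lower ones were Dusp22 (log2 change -0.69, edgeR adjusted p 0.0125), Dusp13 (-1.28, edgeR adjusted p 0.0185) and Dusp11 (-0.47, edgeR adjusted p 0.0452). With Dox they were Dusp7 (-1.81, edgeR adjusted p 0.00891), an ERK phosphatase, and Dusp13 (-1.44, edgeR adjusted p 0.0128). Under SR-3420 in rescued cells Dusp13 alone passed (-1.96, edgeR adjusted p 0.00848). Their median log2 change was -0.32 and -0.22 with ISO without and with Dox. Of 13 other genes tested from a list of inhibitors of the Ras-ERK path, ISO raised 3 and lowered 4 without Dox, and raised 1 and lowered 3 with Dox, to be read beside the same shares of all genes. That list also held Ptpn11, which promotes the path. Spred2, a relative of the Sprouty genes, was higher without Dox (1.51, edgeR adjusted p 0.000945), while Lrig1, which overlaps 1 other gene (-1.35, edgeR adjusted p 7.67e-09), and the Ras GTPase-activating protein Dab2ip (-0.75, edgeR adjusted p 0.00167) were lower. With Dox, Dab2ip (-0.80), Errfi1 (-0.78), an inhibitor of the EGF receptor, and Rasa1 (-0.63) were lower by the same test, the last 2 of which also passed without Dox (-0.65 and -0.66). SR-3420 with Dox raised 1, Rasa3 (0.54, edgeR adjusted p 0.00697), named here after its value was seen like Dusp13 above. In that comparison 6.53% of all genes were higher and 3.37% lower.

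The kinase cascades held genes that rose and genes that fell with ISO, and are read beside the shares of all genes (14.5% higher and 13.5% lower without Dox, 16.4% and 16.1% with Dox). Of 26 receptors, adaptors and kinases of the ERK cascade tested, ISO raised 5 and lowered 5 without Dox and raised 6 and lowered 6 with Dox, with a median log2 change of 0.08 in each. Ksr1, a scaffold of Raf, MEK and ERK, rose by 1.53 without Dox (edgeR adjusted p 3.46e-09) and 1.30 with Dox (edgeR adjusted p 5.84e-08). Pdgfrb, a receptor of platelet-derived growth factor, was lower in both states (-1.20 and -0.78), Fgfr1 without Dox (-0.99) and the adaptor Gab1 with Dox (-1.02). Of 21 genes tested from a list of the JNK and p38 cascades, ISO raised 3 and lowered 1 without Dox and raised 6 and lowered 5 with Dox. That list also held Map2k5, a kinase of the separate ERK5 cascade. Mapkapk2, a kinase that p38 activates, rose by 1.75 without Dox (edgeR adjusted p 8.57e-08) and 1.84 with Dox (edgeR adjusted p 1.07e-08). Map3k5, an upstream kinase of both cascades, rose by 0.81 and 1.29, Mapk8, which encodes JNK1, by 0.98 and 0.90, and Map3k4 was lower in both states (-1.01 and -1.21). SR-3420 without Dox changed 0 of these genes by edgeR, where 0 of the ERK list and 3 of the JNK and p38 list had an unadjusted p under 0.05. With Dox it raised Fgfr2 (1.04, edgeR adjusted p 0.00037) and Map2k1 (0.58, edgeR adjusted p 0.0103) and lowered Mapk14, the gene of p38α (-0.69, edgeR adjusted p 0.00101), all 3 named after their values were seen. That is 2 of 26 higher in the ERK list and 1 of 21 lower in the other, beside 6.53% and 3.37% of all genes. Mapk14 also passed for the interaction of SR-3420 with Dox (-0.80, edgeR adjusted p 0.0409), opposite in sign to Dusp16.

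A list of genes downstream of ERK held genes known to be transcribed in response to it. It also held Elk1, Elk3, Elk4 and Srf, transcription factors through which ERK acts. Of 11 genes of this list tested, ISO raised 4 and lowered 1 without Dox and raised 3 and lowered 1 with Dox, beside the same shares of all genes. None of the Elk genes or Srf passed with ISO. Fosl1, an AP-1 subunit, rose by 3.51 without Dox (edgeR adjusted p 3.43e-09) and 3.95 with Dox (edgeR adjusted p 4.93e-11), and Fosl2 by 1.39 and 1.22. Egr1, an immediate early gene, was lower with Dox (-2.81, edgeR adjusted p 0.000203) and without (-1.93, edgeR adjusted p 0.00421). Spred1 and Spred2 are in this list and in that of the inhibitors. SR-3420 with Dox raised 1, Myc (0.76, edgeR adjusted p 0.0453), named after its value was seen, beside 6.53% of all genes. Of genes known to respond to cAMP, ISO raised 11 of 12 tested without Dox and 11 of 12 with Dox, where 14.5% and 16.4% of all genes were higher. The median log2 changes of the list were 1.89 and 1.76, beside -0.01 and -0.02 for all genes. Among them were Vdr, the vitamin D receptor (3.66 and 3.46), the cAMP-responsive repressor gene Crem (1.46 and 1.69) and Ppargc1a, a coactivator of the thermogenic program (2.19 and 3.28). Ucp1, the uncoupling protein gene, also passed in both states (edgeR adjusted p 1.59e-07 and 5.53e-12), with no fold given because its counts in DMSO were near 0. SR-3420 with Dox raised 3 of the 12, Pde3b (0.79), Ppargc1a (1.14) and Sik1 (1.41), named after their values were seen, where 6.53% of all genes were higher, and the median of the 12 was 0.50. Without Dox it raised 0 by edgeR, with 0 higher and 1 lower at an unadjusted p under 0.05, and the median was -0.14.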

How the data were processed

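Total RNA of 18 libraries was sequenced, with the titles giving the groups. Reads had been aligned by the authors to mm9 with STAR (2.4.2a in the submitters' processing notes), reduced to 1 per position and length with HOMER and counted with iRNA-seq. The authors deposited raw counts per gene and library. The counted length lay within 10% of intron length for 66.0% of 16565 genes matched to the mm9 annotation and within 10% of exon length for 2.5%, so counts were read as intron reads, although the methods name counting over genes. Counting was not stated to use strand, and no gene of the set overlapped another. Table starts were shifted to count from 1.

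Counts were fitted with edgeR 4.0.16 in R 4.3.3 (quasi-likelihood, 6 group means, TMM, filterByExpr), two-sided, over 10178 of 17672 genes, with Benjamini-Hochberg adjustment. The common dispersion was 0.0176. Each SE of an edgeR log2 change was taken as the size of the change over the square root of its F statistic. Correlations used log2 CPM with a prior count of 2. Alternatives included DESeq2 1.42.0, limma-voom (limma 3.58.1) and leaving out each library. Genes named outside the set were Abhd5, the 3 nearest in pattern and up to 3 per list with the smallest p for ISO, and others are marked as named after their values were seen. The genes and lists were chosen with earlier results of these data known. The study names 3 independent experiments, but the labels do not say which libraries came from separate cultures, so p-values measure the spread between these samples. Intervals on counts are 95%, exact and cover counting error only.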

Additional observations from a re-analysis of the deposited data

Results flagged for a closer look

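The response of Dusp16 to SR-3420 differed between the Dox states by 2.65 on the log2 scale (edgeR quasi-likelihood adjusted p 0.0233), the 1 interaction among the 8 genes tested that passed. Across the alternatives the edgeR, DESeq2 or limma-voom adjusted p lay between 0.00128 and 0.0753. Dusp8 was singled out because all 3 SR-3420 libraries without Dox lay below the mean of DMSO and all 3 with Dox above it, by a mean difference of 8.57 CPM with Dox. Without Dox this sets 0 counts against 1 count in each DMSO library, and no fall passed there (edgeR adjusted p 0.605 with no limit on low counts). This difference between the states was not tested among the 10178 genes, as Dusp8 had too few counts. With no limit on low counts it fell short of the threshold (edgeR adjusted p 0.0521), and the 0 counts in SR-3420 without Dox leave its size undefined.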

How the results depend on the processing

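Among fits that left out no library, 459 values of single genes, counted once per gene, comparison and fit, kept their direction and side of the threshold, 12 no longer passed, 3 newly passed and 1 changed sign, the ISO interaction of Dusp1 by limma-voom (-0.01). Requiring at least 10 counts in every sample left 1 of the genes, Dusp4, to test, so the genes passing became 1 for ISO without Dox, 0 for ISO with Dox, 0 for SR-3420 with Dox, 0 for the SR-3420 interaction, 1 for ISO against SR-3420 without Dox and 0 with Dox. By DESeq2, 3 genes passed for ISO without Dox and 3 with Dox, and by limma-voom 3 without Dox. Leaving out each library in turn gave 2 to 4 genes passing for ISO without Dox, 3 to 5 with Dox, 0 to 1 for the SR-3420 interaction, and for ISO against SR-3420 3 to 5 without Dox and 2 to 3 with Dox. The counts for SR-3420 with Dox (3 to 3), SR-3420 without Dox, Dox alone and the ISO interaction (0 to 0 each) did not move. Counted once per gene, comparison and fit, 28 values changed sign on leaving out a library, on 14 log2 changes, none of which had passed: for the ISO interaction Dusp1 ran from -0.20 to 0.30, Dusp5 from -0.93 to 0.18, Dusp10 from -0.21 to 0.37 and Spry1 from -2.10 to 0.02. For the SR-3420 interaction Dusp4 ran from -0.15 to 0.13 and Spry2 from -0.35 to 0.55. Dusp4 also ran from -0.16 to 0.09 for Dox, from -0.19 to 0.07 for ISO with Dox and from -0.07 to 0.23 for ISO against SR-3420 with Dox. Spry1 ran from -0.01 to 0.33 and Spry2 from -0.84 to 0.06 for SR-3420 without Dox, Spry2 from -0.39 to 0.36 for ISO against SR-3420 with Dox, and Spry4 from -0.14 to 0.36 for ISO and -0.07 to 0.45 for SR-3420 with Dox. The causes of these moves were not tested. Replicate numbers recur across groups: same-numbered libraries had deviations from their group means that correlated at 0.0386 to 0.277 (median 0.149) over 45 pairs, 36 of them over 0.1, and all 18 were closest to their own number, a hint from the data and not from the design. With the replicate number as a block, the genes passing stayed at 5, 5, 0, 3, 0, 0, 1, 6 and 3 for ISO without and with Dox, SR-3420 without and with Dox, Dox, both interactions, and ISO against SR-3420 without and with Dox, and the SR-3420 interaction of Dusp16 was 2.71 (edgeR adjusted p 0.00174). Over all genes the block raised the number passing from 78 to 238 for SR-3420 without Dox, 1008 to 1568 for SR-3420 with Dox, 120 to 271 for Dox, 222 to 600 for the ISO interaction and 77 to 339 for the SR-3420 interaction. With library totals only, 58 of 60 group means moved by less than 1 SD, and those of Dusp10 (61.9 CPM) and Spry4 (12.8 CPM) in SR-3420 with Dox by more. Depth limits Dusp1, Dusp6, Dusp8 and the Sprouty genes most, with under 30 counts in every library.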
